A study of Homo sapiens with 3 samples.

Results

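The insulin-like growth factor (IGF) axis was described in Caco-2 cells, a colorectal cancer line of human origin, through 10 genes: the receptors IGF1R, INSR and IGF2R, the ligand IGF2, the receptor substrates IRS1 and IRS2, and the binding proteins IGFBP2, IGFBP3, IGFBP4 and IGFBP6. Every probe set annotated to 1 of these symbols and to no other was taken, which gave 28 of the 44988 probe sets with 1 gene symbol. These 28 covered 9 of the 10 genes, out of 18132 genes on the array. IGF2 contributed none, because all 6 probe sets that list it also list the readthrough gene INS-IGF2. The genes were chosen with the differences on these arrays known, so the values of all 28 probe sets are a description and carry no test.

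The study depleted the transcript OCC-1 (gene symbol C12orf75) and measured total RNA on 3 arrays. The control expressed the non-target hairpin shCTRL (n = 1), and the knockdown group (n = 2) held 1 culture with shOCC-1-1, here line 1, and 1 with shOCC-1-2, here line 2. All 3 were Caco-2 cells grown with 20% serum, transduced with lentivirus, held for 5 days in 1 µg of puromycin per ml and harvested 24 hours after its removal, so the control had passed through the same virus and drug. The labels name neither clones nor repeats of a culture. C12orf75 read 1219 in control cells, 518 in line 1 and 397 in line 2, or 42.5% and 32.5% of control.

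IGF1R is a receptor tyrosine kinase at the cell surface that binds IGF1 and IGF2, and INSR is its close relative for insulin. Once active, both phosphorylate the docking proteins IRS1 and IRS2, which recruit PI3-kinase and so switch on AKT and mTOR, while the adaptors SHC1, GRB2 and SOS1 lead to Ras. IGF2R has no kinase: it carries mannose 6-phosphate tagged enzymes to lysosomes and removes IGF2 by the same route. The IGF-binding proteins are secreted carriers that hold IGFs outside the cell and can restrain or deliver them. Colon epithelium uses this axis for growth, and IGF2 is a gene known for overexpression in part of colorectal cancers.

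Each array gave 1 intensity per probe set, with medians between 182 and 186, and a single control array served as the reference for both lines, so no single line has a replicate check. The arrays' 23 background control probe sets read from 51.3 to 2307 in the control with a median of 104. Background may therefore be part of the intensities, and folds may be understated. The log2 differences of these control probe sets from the control array ran from -0.37 to 0.06 in line 1 and from -0.23 to 0.04 in line 2. The 3′ over 5′ log2 ratio of the ACTB control probe sets, a sign of RNA quality, was 2.62 in control cells, 2.83 in line 1 and 2.88 in line 2, and that of GAPDH was 0.13, 0.07 and 0.11. The part of either measure in the differences below was not tested. Of 8 markers of intestinal epithelium 7 lay above the median intensity of all probe sets, log2 7.52 or an intensity of 184, which also served as the filter on dim probe sets. LGALS4 lay below it, and KRT20 passed narrowly, at 182 in control cells, 185 in line 1 and 186 in line 2. Of the markers of other cell types, 3 of 5 fibroblast, 2 of 4 leukocyte and 1 of 5 endothelial genes with a probe set passed the same threshold, and 0 of them differed 1.5-fold. The summed intensity of the fibroblast markers was 1001 in control cells, 987 in line 1 and 1003 in line 2.

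By the brightest probe set of each gene, the 4 members farthest from control were IGF1R and IRS1 on the higher side and IGFBP4 and IGFBP6 on the lower side. When all probe sets of a gene were averaged, IGF1R (0.15), IRS1 (0.14) and IGFBP4 (-0.15) lay nearer to control than IGF2R and IRS2 (-0.19 each). The 250 bases before their RefSeq start sites are shown to let the 2 pairs be compared in sequence as well as in level (GRCh38.p14, 5′ to 3′ on the gene's strand). Capitals mark the motifs searched on both strands, which were the GC box GGGCGG, the TATA box TATAAA and the CCAAT box CCAAT, and overlapping matches were counted separately.

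IGF1R (chr15:98648289-98648538, plus strand): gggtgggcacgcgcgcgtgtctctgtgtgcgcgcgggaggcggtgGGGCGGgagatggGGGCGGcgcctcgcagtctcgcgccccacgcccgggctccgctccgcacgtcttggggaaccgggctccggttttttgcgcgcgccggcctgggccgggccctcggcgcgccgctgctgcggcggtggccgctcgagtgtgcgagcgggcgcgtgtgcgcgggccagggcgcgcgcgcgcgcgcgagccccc

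IRS1 (chr2:226799821-226800070, minus strand): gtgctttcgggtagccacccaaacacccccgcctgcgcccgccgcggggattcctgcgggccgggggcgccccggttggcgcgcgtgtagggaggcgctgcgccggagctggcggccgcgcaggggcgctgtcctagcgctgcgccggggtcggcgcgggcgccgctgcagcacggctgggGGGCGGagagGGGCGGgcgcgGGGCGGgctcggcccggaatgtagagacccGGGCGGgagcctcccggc

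IGFBP4 (chr17:40443200-40443449, plus strand): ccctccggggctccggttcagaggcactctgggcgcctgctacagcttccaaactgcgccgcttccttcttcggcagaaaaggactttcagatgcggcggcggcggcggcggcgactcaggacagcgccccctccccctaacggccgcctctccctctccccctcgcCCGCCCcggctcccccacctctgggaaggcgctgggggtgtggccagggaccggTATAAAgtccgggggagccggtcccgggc

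IGFBP6 (chr12:53097417-53097666, plus strand): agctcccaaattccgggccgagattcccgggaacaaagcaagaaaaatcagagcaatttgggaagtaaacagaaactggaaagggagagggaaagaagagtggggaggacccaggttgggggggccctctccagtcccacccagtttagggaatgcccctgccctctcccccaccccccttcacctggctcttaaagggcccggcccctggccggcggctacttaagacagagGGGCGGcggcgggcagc

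The IGF1R and IRS1 windows consisted of G and C for 81.2% and 80.8% of their bases, against a median of 58.0% over 35116 such windows in the RefSeq table. IGF1R held 2 GC boxes and IRS1 held 4. The windows of IGFBP4 and IGFBP6 had 71.6% and 61.2% G and C and 1 GC box each. IGFBP4 alone of the 4 had a TATA box. A GC box was present in 42.6% of all windows, a TATA box in 10.7% and a CCAAT box in 32.0%. At least 2 GC boxes were present in 24.3% of all windows and at least 4 in 7.6%. INSR, whose level hardly differed, had 78.4% G and C and 4 GC boxes. IGF2R and IRS2, which were lower on most probe sets, were as rich, with 79.2% and 76.4% G and C and 6 and 5 GC boxes. A match is a string of letters and not a measured site.

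IGF1R was the only member with a probe set at least 1.5-fold from control in both lines, and only 1 of its 7 probe sets was. That probe set, 11718705_at, read 425 in control cells, 780.2 in line 1 and 824 in line 2. Both lines stood well above the control, at 183% and 194% of it, and the log2 difference was 0.91 ± 0.06 (SD, n = 2 lines). Among the 11329 genes above the filter, each represented by its brightest probe set, this was the 18th highest mean difference. Of all probe sets with 1 gene symbol 0.714% were at least 1.5-fold higher in both lines and 0.0556% at least 1.5-fold lower. IGF1R mRNA is also among those described as targets of HuR, and its own values in such a group would be these same ones. A link to HuR was not tested. In a bulk extract, a change in the share of cells with a transcript and a change in its amount per cell cannot be told apart.

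The other IGF1R probe sets differed far less. 11718706_s_at, for which the annotation lists the same target transcript as for 11718705_at, read 311 in control cells, 349 in line 1 and 387 in line 2, or 112% and 124% of control. 11718704_at read 201, 225 and 235, and 11757745_s_at read 285, 292 and 307. All 4 probe sets above the filter thus pointed upward in both lines, by anything from 0.07 to 0.91 on the log2 scale of the mean difference. The remaining 3 were dim and pointed downward. 11718707_a_at read 165, 162 and 164, 11762635_at read 114, 103 and 99.3, and 11752328_a_at read 79.8, 74.5 and 68.0, the last below the median of the background controls. The spread of 0.84 among the 4 IGF1R probe sets was wider than in 96.9% of the 1384 genes with at least 4 probe sets above the filter, whose median spread was 0.32. This spread comes mostly from 11718705_at, and IGF1R was chosen with its difference known. Its place among all genes is therefore partly fixed by that choice. The mean over all 7 probe sets was a log2 difference of 0.15. No probe sequences were used here, so the part of the transcript that each probe set reads was not compared.

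**Figure D1:**
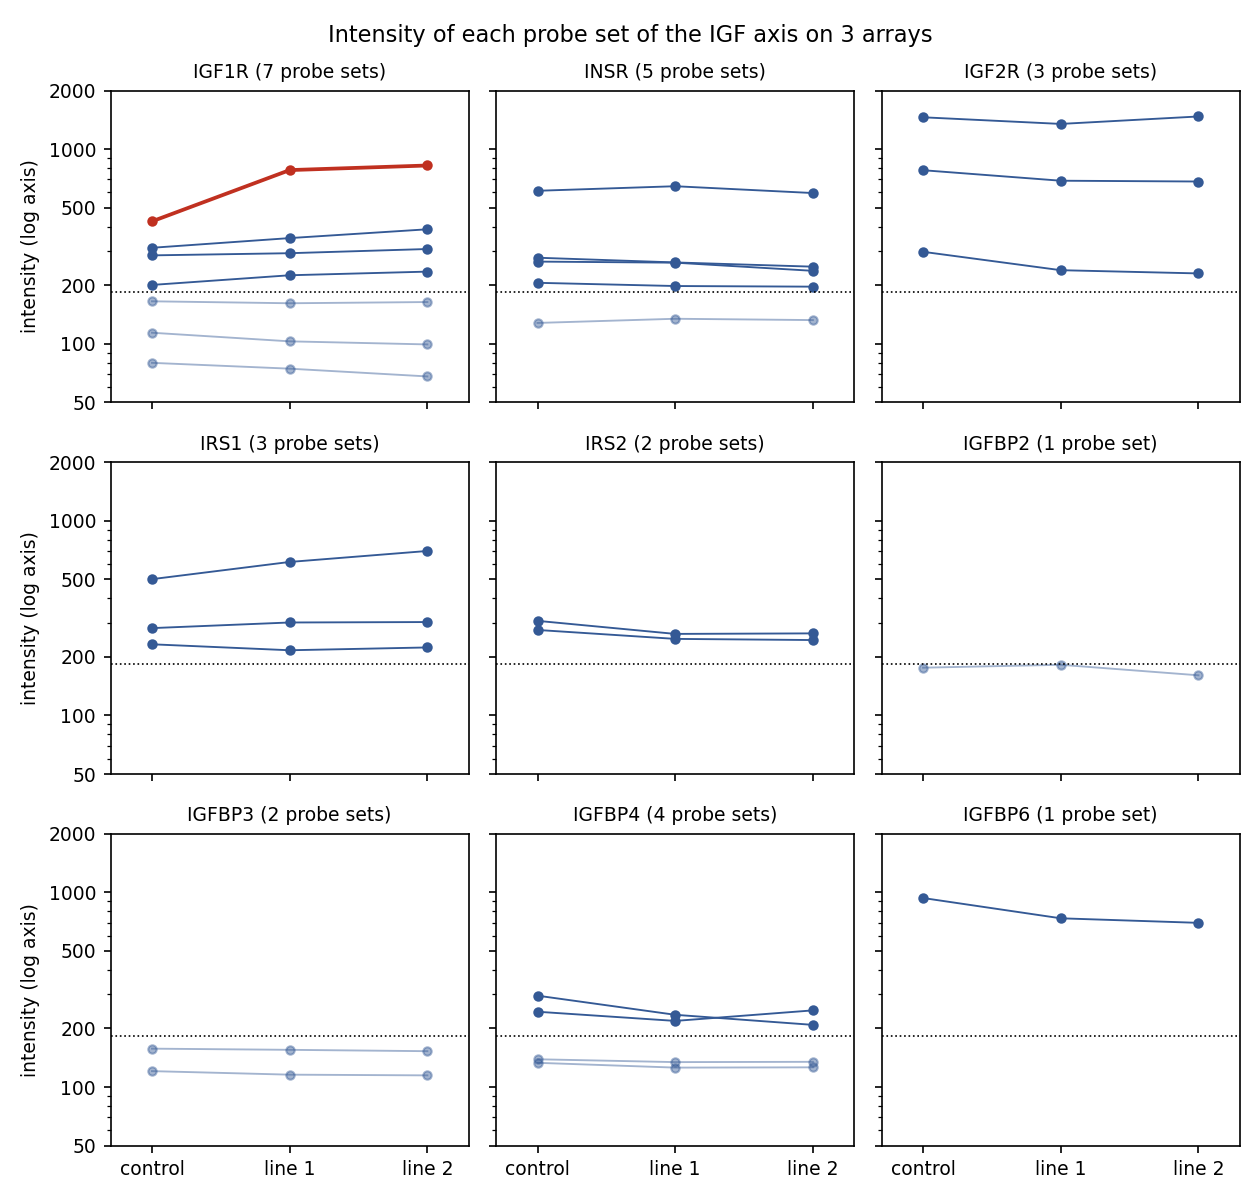
Intensity (log axis) of each probe set on the control array and on the arrays of lines 1 and 2, in a panel per gene, with a line joining the values of 1 probe set. The dotted line is the filter at 184, pale points lie below it, and red marks the IGF1R probe set that went from 425 in the control to 780.2 and 824.

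INSR, the insulin receptor, stayed close to control on all 5 of its probe sets. The brightest, 11740018_a_at, read 611 in control cells, 645 in line 1 and 595 in line 2, so the control lay between the lines. Its log2 difference was 0.02 ± 0.08 (SD, n = 2 lines). The other 4 ran from 94.6% to 105% of control in line 1 and from 89.7% to 103% in line 2, and 3 of the 4 were lower in both lines. The 4 INSR probe sets above the filter spanned 0.14 on the log2 scale, a spread narrower than that of IGF1R.

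IGF2R, the clearance receptor of IGF2, was at or below control. Its brightest probe set, 11716129_at, read 1457 in control cells, 1347 in line 1 and 1471 in line 2, with the control again between the lines. 11716128_at read 779, 688 and 682, and both lines were below the control by about the same amount. 11753961_a_at read 297, 239 and 229.8, or 80.5% and 77.4% of control, the lowest of the receptor probe sets above the filter. All 3 passed the filter and none was 1.5-fold lower. The log2 difference was -0.05 on the brightest and -0.19 as the mean of the 3.

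The brightest probe sets of the 2 receptor substrates differed from control in opposite directions. IRS1, the docking protein that couples IGF1R and INSR to PI3-kinase, had its highest value in line 2. 11743629_at read 501 in control cells, 614 in line 1 and 699 in line 2, or 123% and 140% of control, with a log2 difference of 0.39 ± 0.13 (SD, n = 2 lines) that was 0.14 as the mean of all 3 probe sets. The other 2 IRS1 probe sets did not repeat this size, since 11743628_at read 281, 300.2 and 302, and 11743627_a_at read 232, 216 and 223. IRS2, the second substrate, was lower on both of its probe sets. 11718013_at read 306 in control cells, 262 in line 1 and 264 in line 2, and 11718012_at read 275, 247 and 244. The log2 difference of the brighter one was -0.22 ± 0.01 (SD, n = 2 lines), and the lines were nearly equal on both. Both IRS2 probe sets lay within the ranges of log2 difference that the background controls spanned in each line.

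The IGF-binding proteins were lower than control on their brightest probe set or lay below the filter. IGFBP6, which prefers IGF2 over IGF1, has 1 probe set, and 11717909_at read 936 in control cells, 736 in line 1 and 697 in line 2. Both lines lay below the control, at 78.7% and 74.5% of it, with a log2 difference of -0.38 ± 0.05 (SD, n = 2 lines). For IGFBP4, a binding protein cut by the protease PAPPA, the brightest probe set 11715465_at read 295, 235 and 209, or 79.8% and 70.8% of control. Its log2 difference was -0.41 ± 0.12 (SD, n = 2 lines), and the mean over all 4 probe sets was -0.15. Its second probe set above the filter, 11715464_x_at, read 244, 219 and 248, with line 2 at the level of the control. The 2 dim ones, 11715463_s_at and 11749616_s_at, were between 94.5% and 97.0% of control in the lines. IGFBP2 and IGFBP3 had no probe set above the filter. IGFBP2 read 176, 182 and 161, and the brighter probe set of IGFBP3, the main IGF carrier of serum, read 158, 155 and 153. These intensities lay above the median of the background controls, but the log2 differences lay within the ranges that the background controls spanned in each line. The same held, among others, for both IRS2 probe sets and for 11716128_at of IGF2R. For IGFBP6 and for 11715465_at of IGFBP4 it held in line 1 but not in line 2. Detection was not tested.

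**Figure D2:**
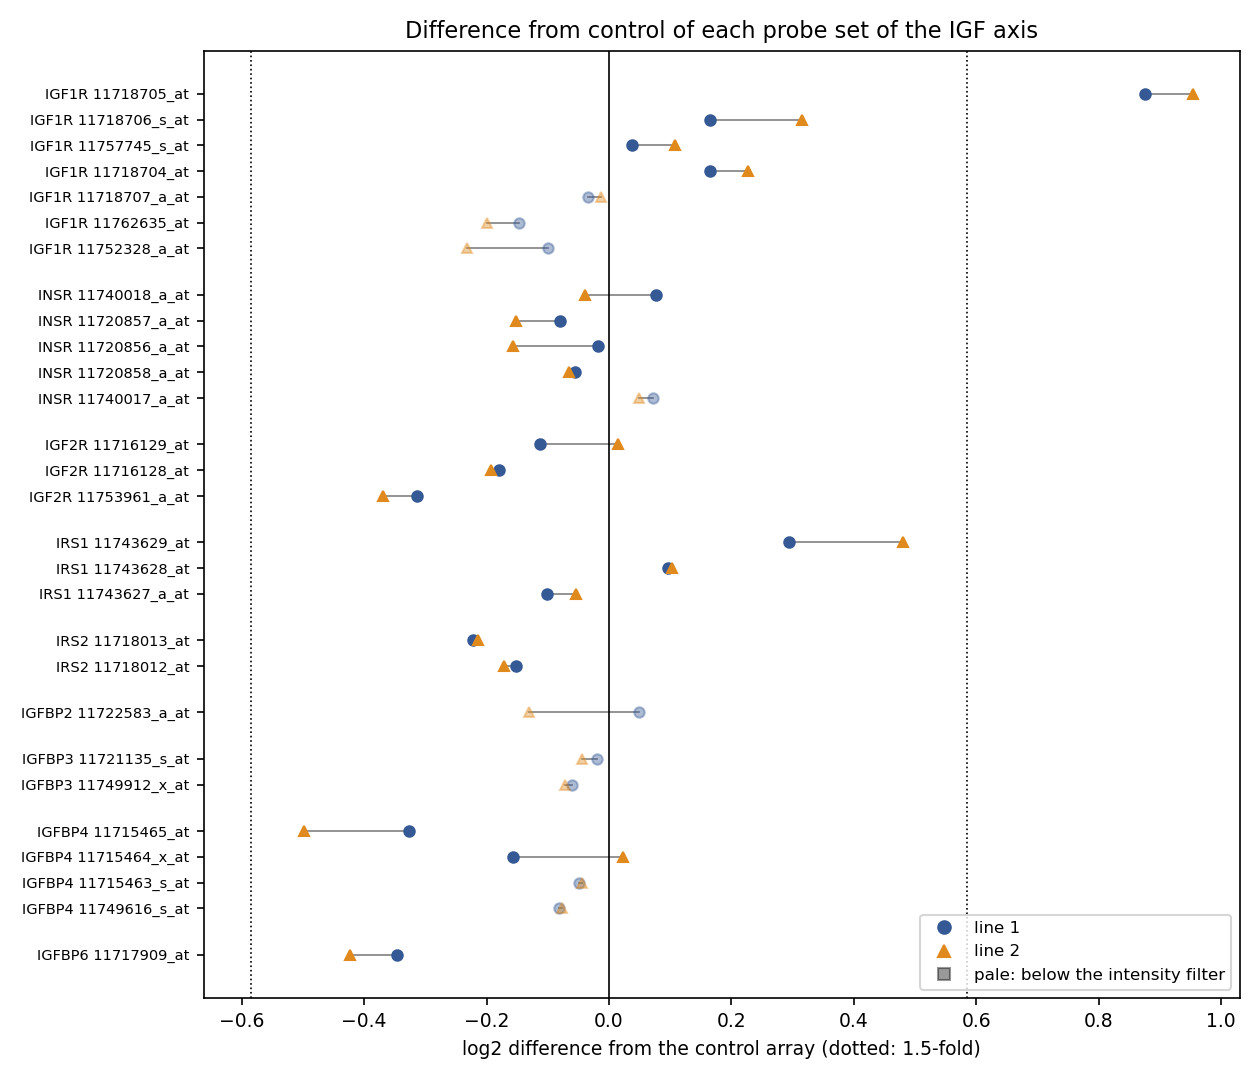
Log2 difference from the control array of each of the 28 probe sets, for line 1 (circles) and line 2 (triangles), grouped by gene with the brightest first. The dotted lines mark 1.5-fold, and only the brightest IGF1R probe set lies past one of them, at 0.88 in line 1 and 0.95 in line 2.

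As a group the member probe sets lay near the background of all probe sets. Of the 28, 7 were higher in both lines, 17 lower in both and 4 went different ways, and the medians were -0.06 in line 1 and -0.06 in line 2. Over all 44988 probe sets with 1 gene symbol, 30.5% were higher in both, 48.1% lower in both, and the medians were -0.04 and -0.02. Of the 28 members 19 passed the filter, with 6 of them (31.6%) higher in both lines and 10 (52.6%) lower in both, against 37.8% and 44.7% of all probe sets above the filter. There, 1.41% of the probe sets were at least 1.5-fold higher in both lines and 0.11% lower, and 1 of the 19 members was higher. Probe sets of 1 gene share their transcript and are not separate observations. The median size of the log2 difference between lines 1 and 2 was 0.06 over the 28 and 0.06 over all. The widest was 0.19 among the 28 and 0.65 over all, where 3 probe sets were 1.5-fold apart between the lines.

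The genes most like the brightest IGF1R probe set were taken by the distance between pairs of log2 differences, 2 values per gene. The 5 nearest were BLOC1S6, a subunit of a complex for lysosome-related organelles, at 184% and 190.4% of control, TTF2, a transcription termination factor, at 188% and 193%, HNRNPK, an RNA-binding protein, at 189.7% and 191%, the polarity gene PARD6B at 183% and 202% and MREG, a melanosome transport gene, at 182% and 183%. Likeness over 2 differences that share a control array is a weak measure.

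The rest of the insulin and IGF pathway was read from a list of 78 genes without the members. Of these 71 had a probe set with 1 symbol and 56 passed the filter with their brightest one. By size 0 of the 56 were 1.5-fold from control in both lines, against 1.36% of the 11329 genes higher and 0.159% lower. limma, which compared both lines with the control over all 11329 genes, called 10 of the 56 higher and 3 lower at an adjusted p of 0.05, or 17.9% and 5.36%, where the background was 9.63% and 3.06%. After quantile normalization 11 list genes rose and 4 fell, and the calls over all genes went from 1091 higher and 347 lower to 1143 and 789. The list's medians were 0.00 and -0.01, and those of all genes -0.03 and -0.02. These p-values rest on the spread between 2 knockdown arrays alone, which may be technical, and assume the same spread for the single control. The list was chosen with earlier results of these data known, so its shares beside the background are a description and no independent support.

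The adaptors, with 7 genes above the filter, and the mTOR branch, with 12, each held 2 of the genes that rose. SOS1, the exchange factor that activates Ras, read 1062 in control cells, 1385 in line 1 and 1329 in line 2 (limma log2 difference 0.35 ± 0.08 SE, adjusted p = 0.0287). RHEB, the GTPase that activates mTOR complex 1, read 2220, 3204 and 3358 (0.56 ± 0.08 SE, limma adjusted p = 0.00813). The other 2, the docking protein GAB1 (124% of control in both lines) and the ribosomal S6 kinase RPS6KB1 (128% and 122%), passed the test but are named outside the rule that picked 1 gene per role by its differences, as are the genes below that are marked so. Over all genes above the filter limma called 9.63% higher and 3.06% lower, the background for the counts of each role here and below. At those shares a set of 6 or 7 genes can hold 0 calls. None of the 6 genes of PI3-kinase and AKT and none of the 7 insulin outputs passed. The largest same-way differences there were PIK3R1, a regulatory subunit of PI3-kinase, at 125% and 113% (limma adjusted p = 0.115), and the kinase GSK3B at 122% and 121% (limma adjusted p = 0.0528). The other GSK3B probe set above the filter pointed the other way, at -0.23 and -0.37, and 3 of the 4 others of PIK3R1 were higher in both lines.

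Negative regulators of the pathway rose in 3 of 12 cases and fell in 1. CBL, a ubiquitin ligase that marks receptor tyrosine kinases for removal, read 879 in control cells, 1246 in line 1 and 1417 in line 2 (0.60 ± 0.10 SE, limma adjusted p = 0.0118). The ubiquitin ligase NEDD4 was at 127% and 129% of control and the signalling suppressor SOCS2 at 135% and 147%, while PHLPP2, a phosphatase that acts on AKT, fell to 73.8% and 79.2% (these 3 outside the rule, named after their values were seen). Among the 5 genes above the filter in the group of binding proteins, their proteases and partners of either, 0 rose and 1 fell. It was IGFBP7, a low-affinity IGF binder, which read 320.0, 261 and 245 (-0.34 ± 0.08 SE, limma adjusted p = 0.0376).

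Of the 3 proteins that bind IGF2 mRNA and passed the filter, 2 rose. IGF2BP3 read 1660 in control cells, 2372 in line 1 and 2444 in line 2 (0.54 ± 0.07 SE, limma adjusted p = 0.00877). IGF2BP2 was at 142% and 135% of control (outside the rule, named after its values were seen), and IGF2BP1 did not pass. The enzymes that make the mannose 6-phosphate tag read by IGF2R split, with GNPTAB, which adds the tag precursor, at 418, 608 and 576 (0.50 ± 0.08 SE, limma adjusted p = 0.011) and NAGPA, which uncovers the tag, lower at 73.9% and 72.2% of control (outside the rule, named after its values were seen). Whether roles differ from each other was not tested.

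As with IGF1R, other probe sets of these genes often did not follow. Of the 10 genes that rose 7 had further probe sets past the filter, 18 in all, with 8 pointing up in both lines and 8 pointing down in both. These counts were close to the shares over all probe sets with 1 gene symbol above the filter. There, 37.8% were higher in both lines and 44.7% lower in both. RHEB had 2 others, with medians of -0.24 and -0.22, IGF2BP3 had 1 at -0.13 and -0.26, and CBL had 2 with medians of -0.14 and 0.03. Of the adaptors, SOS1 had 2 others, 1 higher and 1 lower in both lines. GAB1 had 5 others, 2 higher and 3 lower in both lines. RPS6KB1 stood on the other side, with 4 of 5 others higher in both lines and medians of 0.35 and 0.27. When every probe set of a gene was averaged, 2 list genes rose and 2 fell, of which 2 and 1 were among those called above.

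**Figure D3:**
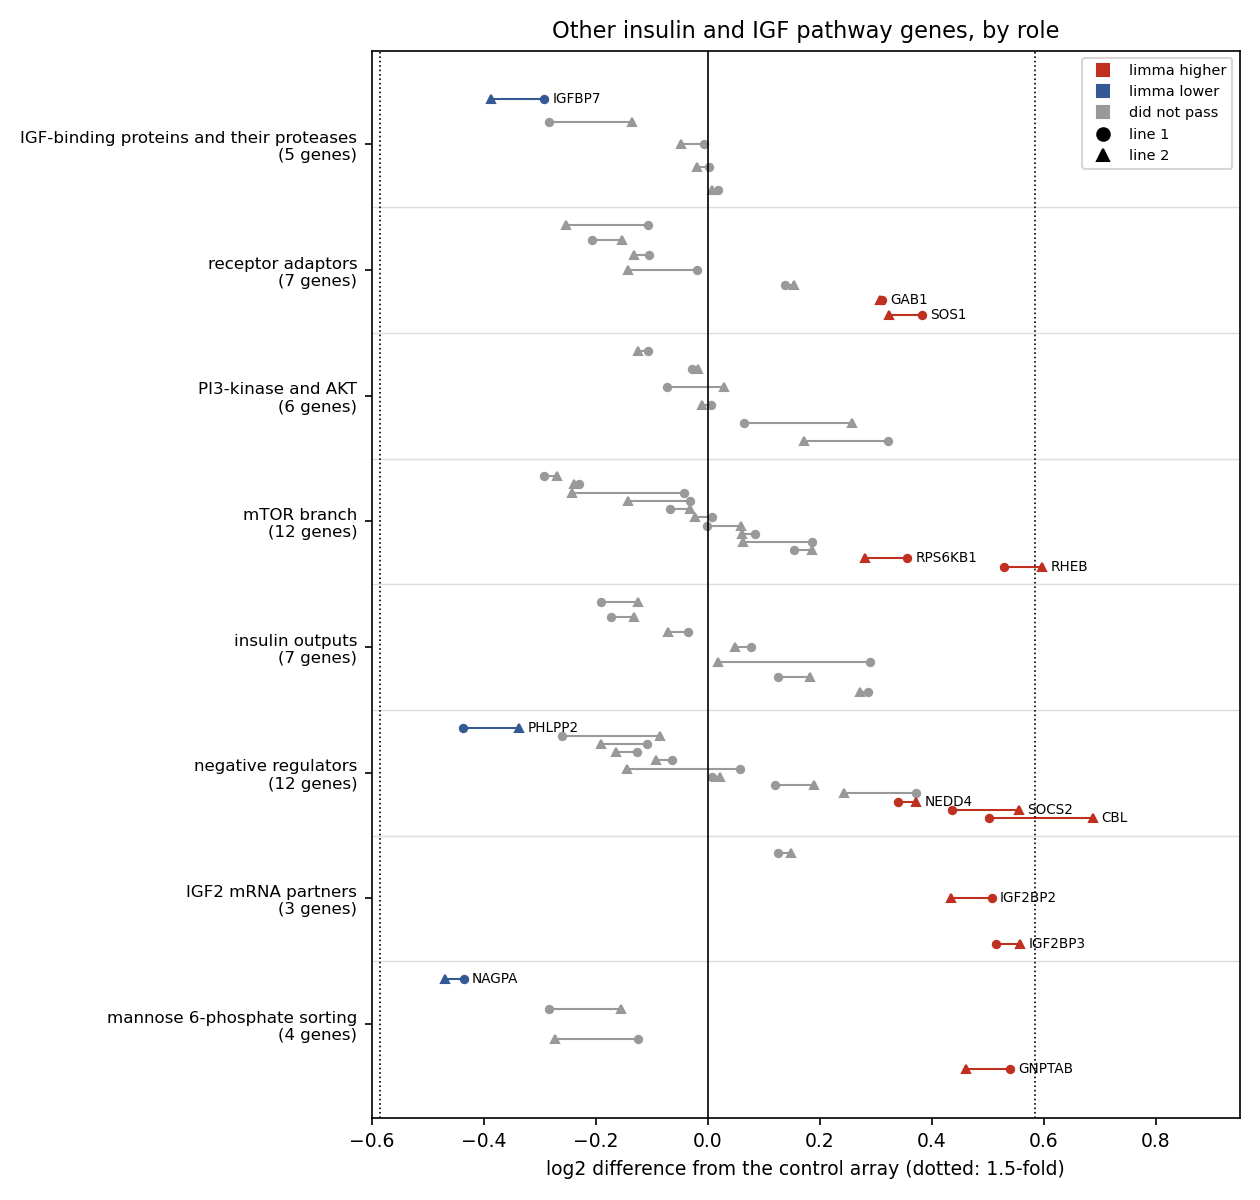
Log2 difference from the control array of the 56 listed insulin and IGF pathway genes above the filter, by role, for line 1 (circles) and line 2 (triangles). Red genes rose (10) and blue genes fell (3) in limma, grey genes did not pass, and the dotted lines mark 1.5-fold, which no gene passed in both lines.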

How the data were processed

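RNA from 3 cultures of Caco-2 cells, a control (n = 1) and an OCC-1 knockdown group (n = 2, different hairpins), was measured on oligonucleotide arrays. Groups came from the genotype label. The authors' deposited values are 1 linear intensity per probe set and array, and RMA is named in the submitters' processing notes without settings. The sources used here do not give the background handling. No normalization was added. Values were converted to log2 without a pseudocount.

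Symbols came from the platform annotation, updated through RefSeq for GRCh38.p14 (0 changed). For gene counts the probe set with the highest mean was used, and genes with a mean log2 below 7.52 were left out, which left 11329 of 18132. Members were read on all probe sets. limma 3.58.1 in R 4.3.3 (lmFit, eBayes, two-sided, Benjamini-Hochberg) compared 2 arrays with 1, with 1 residual degree of freedom and 6.96 after moderation. It was also run on simulated data, with the noise of every array drawn from the difference between the 2 knockdown arrays. Such data cannot check the spread assumed for the single control. Python 3.11.15 did the rest.

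Members, lists and tests were chosen with earlier results of these data known. Named list genes were those 1.5-fold from control in both lines and, per role, the gene whose nearer line lay farthest from control. Alternatives were quantile, median and cyclic loess scaling, normexp with offset 50, the mean of all probe sets, no filter, thresholds of 1.3-fold and 2-fold, and each line left out.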

Additional observations from a re-analysis of the deposited data

How the results depend on the processing

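The count of 1 higher and 0 lower member probe sets was the same under all scalings, normexp, 1.3-fold and either line alone, and fell to 0 higher at 2-fold. The IGF1R log2 difference of 0.91 stayed between 0.88 and 0.95 with either line left out and between 0.90 and 0.94 under the scalings and normexp, but was 0.15 with the mean of all its probe sets, which averages in probe sets of smaller difference. For the other members 45 of 56 alternatives moved the value by less than the SD between lines. Leaving a line out always moves it by less than that SD. Averaging probe sets cannot move IGFBP2 or IGFBP6, which have 1 each. That part of the tally was fixed in advance and is no sign of stability. Of the 56 alternatives 6 changed the sign, all of them values near 0 of INSR, IGF2R, IGFBP2 or IGFBP3. The mean of all probe sets moved IRS1 from 0.39 to 0.14, IGFBP4 from -0.41 to -0.15 and IGF2R from -0.05 to -0.19.

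In the pathway list, the size rule gave 6 higher and 1 lower at 1.3-fold and 0 to 2 higher with a line left out, the 2 being RHEB and CBL in line 2. limma's 10 higher became 2 with the mean of all probe sets, both among the 10, where 44 list genes were left. Over all genes, 154 higher and 18 lower became 44 and 9 with that mean, 602 and 106 at 1.3-fold, 8 and 4 at 2-fold, and 212 to 219 and 24 to 46 with a line left out. limma's 1091 higher became 660 with that mean, and its 347 lower became 789 after quantile normalization (1143 higher) and 713 without the filter. The cause of these changes was not tested. limma could not be run with a line left out, for lack of residual degrees of freedom. No paired analysis was possible because 1 control array serves both lines and the labels give no pairing. The single control array and a background whose handling is not known limit every value.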

Other observations

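The 6 probe sets that list both IGF2 and the readthrough gene INS-IGF2 were assigned to neither gene, and they did not move together. 11739787_a_at read 13006 in control cells, 14653 in line 1 and 13753 in line 2, and 11756003_x_at read 9812, 11372 and 10716, so on both the lines were above the control, at 113% and 106% and at 116% and 109% of it. 11753726_s_at read 7834, 6643 and 5068, and 11758400_s_at read 4006, 3478 and 2518, so on both the lines were below the control, at 84.8% and 64.7% and at 86.8% and 62.8%. 11739786_s_at read 602, 514 and 460.5 and was lower as well, and 11742637_s_at, at 128, 117 and 114, was dim. The 2 pairs of bright probe sets thus gave opposite directions for the same 2 symbols, and line 2 was below line 1 on all 6.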
